A study of Homo sapiens with 32 samples.

Results

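The 36 genes described here encode the enzymes and transporters of glycolysis and a set of genes that cells induce when oxygen is short. They were taken by symbol from the 25066 features of the deposited table. No measured value entered that rule, but the members were chosen with earlier results of these data known. They fall into 6 groups by role: glucose entry and phosphorylation (4 genes), upper glycolysis (8), lower glycolysis (6), pyruvate and lactate (5), oxygen sensing (3) and other hypoxia-induced genes (10). RNA came from 2 human diffuse large B-cell lymphoma lines, both labelled as Cas9 engineered: TMD8, which resembles activated B cells, and DOHH2, which resembles germinal centre B cells. Each line was exposed to CSKi at 500 nM, which blocks CSK, a kinase that restrains the Src family, or to its vehicle DMSO, for 1, 3, 6 and 24 h. Every combination of line, treatment and time had 2 libraries, which gave 16 groups and 32 libraries. The labels call the duplicates biological replicates without saying whether the cultures were separate, so p-values measure the spread between these libraries only.

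Glycolysis splits glucose into pyruvate. Glucose enters through transporters of the SLC2A family and is trapped by hexokinases, phosphofructokinase sets the pace of the upper steps, and lactate dehydrogenase turns pyruvate into lactate, which leaves through SLC16A carriers. Hypoxia-inducible factor (HIF) couples this pathway to oxygen: prolyl hydroxylases of the EGLN family mark its alpha subunit HIF1A for destruction while oxygen is present. Without oxygen the protein binds DNA at a short core such as the letters ACGTG. There it raises many glycolytic genes together with PDK1, CA9 and VEGFA. B cells raise glycolysis when they are activated, and many lymphoma lines use it heavily in culture.

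The letters ACGTG were counted in the genes' promoters, and no other form of the HIF core was. The choice by symbol used no sequence, but the list holds known HIF targets, so an excess of matches is no independent result. Promoter sequence of RefSeq (GRCh38.p14, 250 bases before each annotated start) was found for 31 of the 36 genes, in 61 entries. The letters ACGTG, read on both strands and including those inside CACGTG, were present in 23 of the 61 entries (37.7%), against 6501 of 35116 entries of all genes (18.5%). CACGTG, the letters that MYC and its partners also bind, was present in 13.1% of the genes' entries and 6.34% of all entries. A match is a string of letters and not a measured binding site. Below are 6 examples, each an entry that holds a match, with matches on either strand in capitals. They were chosen after the values were seen: the hypoxia-induced CA9, ANKRD37, P4HA1 and PDK1, whose RNA was higher at 24 h than at 1 h in TMD8, and the glycolytic LDHA and PGK1, which responded to CSKi in opposite directions. The windows are chr9:35673678-35673927 on the plus strand for CA9, chr4:185396591-185396840 plus for ANKRD37, chr10:73096867-73097116 minus for P4HA1, chr2:172555840-172556089 plus for PDK1, chr11:18394313-18394562 plus for LDHA and chrX:78103998-78104247 plus for PGK1. Each is printed 5′ to 3′ and ends at the base before the annotated start.
CA9: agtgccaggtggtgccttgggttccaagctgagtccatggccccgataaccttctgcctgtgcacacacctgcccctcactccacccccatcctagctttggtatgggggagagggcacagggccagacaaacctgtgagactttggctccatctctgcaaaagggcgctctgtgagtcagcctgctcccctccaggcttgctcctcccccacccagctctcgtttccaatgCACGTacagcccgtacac
ANKRD37: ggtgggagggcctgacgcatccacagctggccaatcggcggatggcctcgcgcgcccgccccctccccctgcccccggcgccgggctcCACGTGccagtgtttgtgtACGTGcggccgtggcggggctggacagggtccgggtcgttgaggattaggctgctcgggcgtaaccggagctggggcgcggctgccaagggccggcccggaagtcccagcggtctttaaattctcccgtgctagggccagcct
P4HA1: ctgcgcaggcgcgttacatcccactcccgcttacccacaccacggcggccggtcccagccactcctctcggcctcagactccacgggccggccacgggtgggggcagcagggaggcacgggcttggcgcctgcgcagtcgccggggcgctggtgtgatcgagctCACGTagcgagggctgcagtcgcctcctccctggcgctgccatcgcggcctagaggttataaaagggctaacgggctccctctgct
PDK1: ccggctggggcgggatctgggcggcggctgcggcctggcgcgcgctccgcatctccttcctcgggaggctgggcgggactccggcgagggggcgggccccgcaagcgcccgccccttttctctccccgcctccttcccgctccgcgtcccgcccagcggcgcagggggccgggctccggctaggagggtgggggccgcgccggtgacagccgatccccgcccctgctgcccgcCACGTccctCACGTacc
LDHA: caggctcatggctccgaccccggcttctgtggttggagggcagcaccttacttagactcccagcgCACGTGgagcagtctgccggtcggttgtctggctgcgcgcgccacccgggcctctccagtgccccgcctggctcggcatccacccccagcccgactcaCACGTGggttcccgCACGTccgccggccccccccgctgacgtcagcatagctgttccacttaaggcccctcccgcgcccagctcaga
PGK1: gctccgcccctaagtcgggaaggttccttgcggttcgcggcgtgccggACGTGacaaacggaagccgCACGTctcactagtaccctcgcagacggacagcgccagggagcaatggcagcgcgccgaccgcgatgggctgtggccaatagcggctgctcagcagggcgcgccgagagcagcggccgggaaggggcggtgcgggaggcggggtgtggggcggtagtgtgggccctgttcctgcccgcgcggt
The match of CA9 began 18 bases before its start, and those of PDK1 17 and 8 bases before. LDHA held 5 matches, 4 of which overlap in pairs within CACGTG at 2 places. PDK1 and LDHA each had another entry without a match, and the entries of SLC2A1, KDM3A and PFKFB4 held no ACGTG on either strand.

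Libraries held 12273442 to 24907030 mapped reads. Values below are normalised counts, the deposited log2 values taken back to the linear scale, and differences are on the log2 scale of the deposited values, with the standard error (SE) of a limma fit. A gene was called higher or lower at an adjusted p under 0.05 by limma, adjusted by Benjamini-Hochberg over 12000 features, those of highest mean in the libraries of that fit. All 9 B cell marker genes examined were detected in both lines, with summed normalised counts of 181494 to 243931 in TMD8 and 86886 to 108463 in DOHH2, and the summed T and NK cell markers reached at most 163 and 188. In DOHH2 at 24 h the libraries went against their labels: over the 12000 features, CSKi replicate 1 and DMSO replicate 2 differed with an SD of 0.275 (log2), and CSKi replicate 2 and DMSO replicate 1 with 0.218, less than the CSKi duplicates (0.381) and the DMSO duplicates (0.328). The DOHH2 comparisons at 1, 3 and 6 h were therefore fitted without those 4 libraries, and DOHH2 values at 24 h are given library by library as labelled. Of the 36 genes, 34 were among the features tested in TMD8 and 31 in DOHH2. EGLN3 and ADM were too low in both lines, and CA9, ENO2 and NDRG1 too low in DOHH2. CA9 passed in TMD8 through its 24 h libraries alone, so its changes over time there are given as values with no test and stand outside the counts over time.

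In TMD8 kept in vehicle alone, the genes tested were higher at 24 h than at 1 h. With CA9 left aside, all 33 were called higher and none lower, with a median difference of 0.80, while 46.7% of all features tested were called and split nearly evenly, 22.8% higher and 23.9% lower (median over all features -0.01). Together the 36 genes took 1.46 and 1.37% of mapped reads in the DMSO libraries at 24 h, against 0.89 to 0.944% in all TMD8 libraries of 1 to 6 h. Marker sums moved as well in vehicle: the B cell markers summed to between 181494 and 182118 normalised counts at 24 h, against 232679 to 237974 at 1 h. The myeloid markers summed to between 1744 and 1788 at 24 h, against 2135 to 2210 at 1 h, the fibroblast and epithelium markers to between 3425 and 3708, against 4426 to 4524, and the T and NK cell markers to between 93.5 and 103, against 89.3 to 119. The part of these markers in the change over time was not tested. In bulk RNA, a change in all cells and a change in the share of cells that express a gene cannot be told apart.

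**Figure D1:**
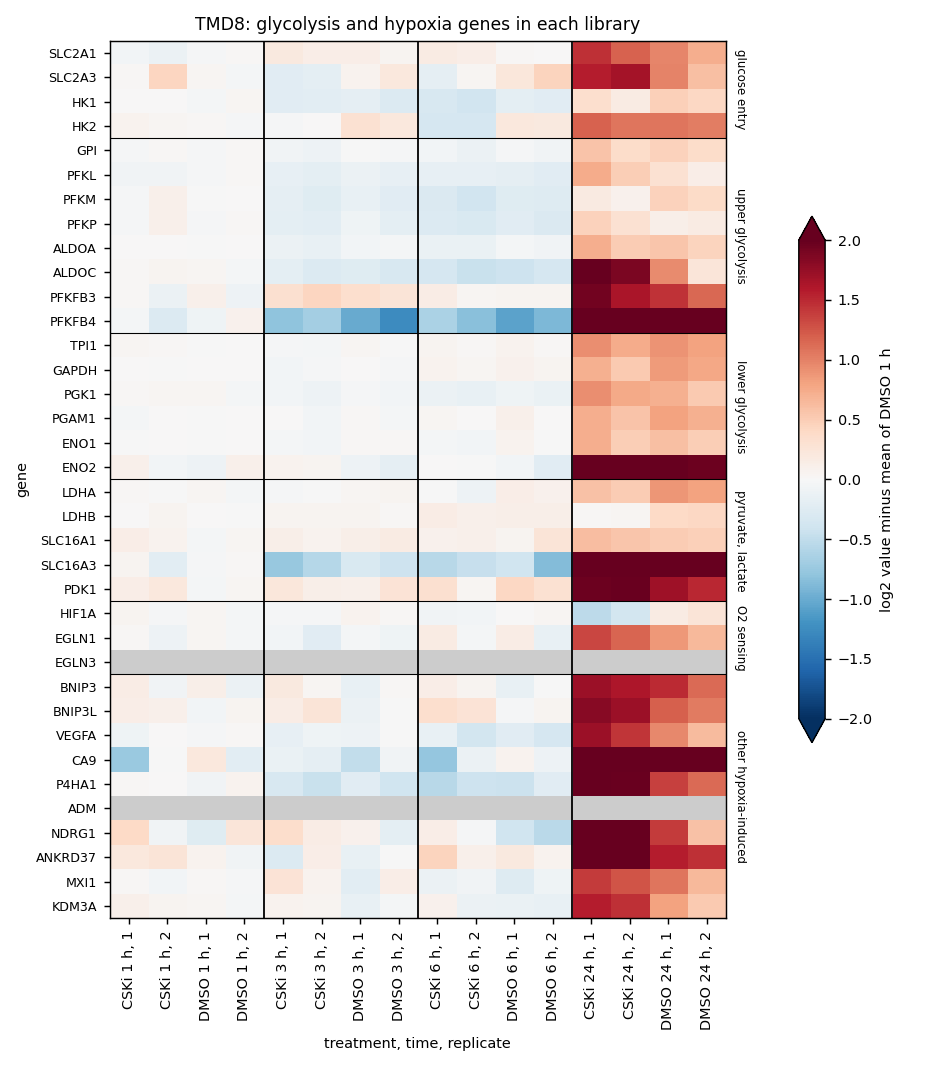
Heat map of the 36 genes in the 16 TMD8 libraries: columns are libraries in order of time with CSKi left of DMSO, rows are genes by role, and colour is the log2 value minus the mean of the DMSO 1 h libraries, capped at 2 on either side. Grey rows are genes too low to be tested. The 4 libraries of 24 h stand out in red in nearly every row, and CA9, PFKFB4, SLC16A3 and ENO2 are darkest in both treatments.

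Carbonic anhydrase 9, encoded by CA9, is among the strictest targets of HIF. CA9 had normalised counts of 42.0 and 31.5 at 1 h in DMSO, 25.8 and 34.5 at 3 h, 38.0 and 34.0 at 6 h and 700 and 432 at 24 h. The 24 h values lay above those of every earlier time (24 h minus 1 h 3.92, not tested). EGLN3, the prolyl hydroxylase that hypoxia usually induces most, showed no such pattern: it had 5.72 and 2.64 at 24 h, against 5.25 and 3.50 at 1 h, at most 15 reads in any TMD8 library. ADM, the gene of the vasodilator peptide adrenomedullin, was also too low to test over all libraries. It had 177 and 90.9 at 24 h in DMSO, against 3.50 to 12.3 in the 6 earlier DMSO libraries.

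Among the glycolytic enzymes, the largest differences were those of ENO2 and the PFKFB regulators. ENO2, the neuronal enolase, had 1532 and 1357 at 24 h, against 325 and 373 at 1 h (2.05 ± 0.10), while ENO1, the common enolase, differed by 0.55 ± 0.05. PFKFB4, which makes and breaks down the small sugar phosphate that activates phosphofructokinase, first fell and then rose. It had 238 and 266 at 1 h, 126 and 105 at 3 h, 120 and 135 at 6 h and 1773 and 1299 at 24 h. Its difference from 1 h was -1.13 ± 0.15 at 3 h, -0.98 ± 0.15 at 6 h and 2.59 ± 0.15 at 24 h, all called. Its relative PFKFB3 differed by 1.30 ± 0.09 at 24 h. The phosphofructokinase subunits themselves differed little, with 0.22 ± 0.06 for PFKL, 0.42 ± 0.06 for PFKM and 0.14 ± 0.05 for PFKP.

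At the entry and exit of the pathway, SLC2A1 (Gene ID 6513), the main glucose transporter, had 2476 and 2090 at 24 h in DMSO, against 1232 and 1285 at 1 h (0.85 ± 0.08). Hexokinase HK2 (Gene ID 3099) had 8382 and 8090 at 24 h, against 4040 and 3916 at 1 h (1.05 ± 0.04), and HK1 differed by 0.45 ± 0.05. Neither gene overlapped its 1 h values, where 35.9% of all features lay wholly above theirs. The lactate exporter SLC16A3 had 1021 and 680 at 24 h, against 161 and 166 at 1 h (2.35 ± 0.18), and SLC16A1, which carries lactate in either direction, differed by 0.49 ± 0.06. LDHA (Gene ID 3939) had 39814 and 37693 at 24 h, against 22134 and 21189 at 1 h (0.84 ± 0.04). PDK1 (Gene ID 5163), a kinase that inhibits pyruvate dehydrogenase in the mitochondrion, had 1145 and 1000, against 343 and 361 (1.61 ± 0.10). Adjusted p-values of these 24 h differences by limma ranged upward from 1.47e-15 for HK2, and PFKP had the weakest support of all (0.0174).

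HIF1A (Gene ID 3091) itself rose by little in vehicle, with 5461 and 5797 at 24 h, against 4956 and 4744 at 1 h (0.21 ± 0.05, adjusted p = 0.000524). The hydroxylase gene EGLN1, a HIF target that acts back on HIF, differed by 0.75 ± 0.09. All 8 other hypoxia-induced genes besides CA9 were called higher at 24 h (median 1.06). ANKRD37 differed by 1.51 ± 0.15, the mitophagy receptors BNIP3 and BNIP3L by 1.31 ± 0.11 and 1.12 ± 0.07, and the collagen hydroxylase P4HA1 by 1.25 ± 0.09. VEGFA, the vessel growth factor, differed by 0.80 ± 0.09 and the histone demethylase KDM3A by 0.66 ± 0.07.

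Before 24 h the genes of TMD8 in vehicle moved both ways. At 3 h minus 1 h in DMSO 2 genes were called higher (HK2 and PFKFB3) and 5 lower, against 19.4% of all features called (9.68% higher and 9.68% lower). At 6 h minus 1 h 4 were called higher and 9 lower, against 23.5% (11.2% higher and 12.4% lower). The 6 h calls included HK2 (0.20 ± 0.04) and PDK1 (0.36 ± 0.10) on the higher side and SLC16A3 (-0.63 ± 0.18) and P4HA1 (-0.33 ± 0.09) on the lower side. With voom on recovered reads the split at 6 h was 5 higher and 7 lower. Without DMSO 1 h replicate 2 the counts were 2 at 3 h and 5 at 6 h, without DMSO 3 h replicate 2 the 3 h count was 2, and without DMSO 6 h replicate 2 the 6 h count was 7. From 6 to 24 h, 32 of 33 were called higher (median 0.80), against 41.6% of all features called (20.6% higher and 20.9% lower), and SLC2A3 was the exception (0.46 ± 0.19, adjusted p = 0.0549).

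The CSKi arm of TMD8 moved over time as well. At 24 h minus 1 h 30 of 33 genes were called higher and 1 lower, CA9 again left aside, against 52.9% of all features called (26.7% higher and 26.3% lower), with a median of 1.29 over the genes and 0.01 over all features. PFKFB4 differed by 3.78 ± 0.15, SLC16A3 by 2.93 ± 0.18 and ENO2 by 2.36 ± 0.10. HIF1A was the gene called lower (-0.46 ± 0.05), and PFKM (0.10 ± 0.06) and LDHB (0.00 ± 0.03) were not called. The test of the difference between the arms is given further on, as the change of the response from 1 to 24 h.

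**Figure D2:**
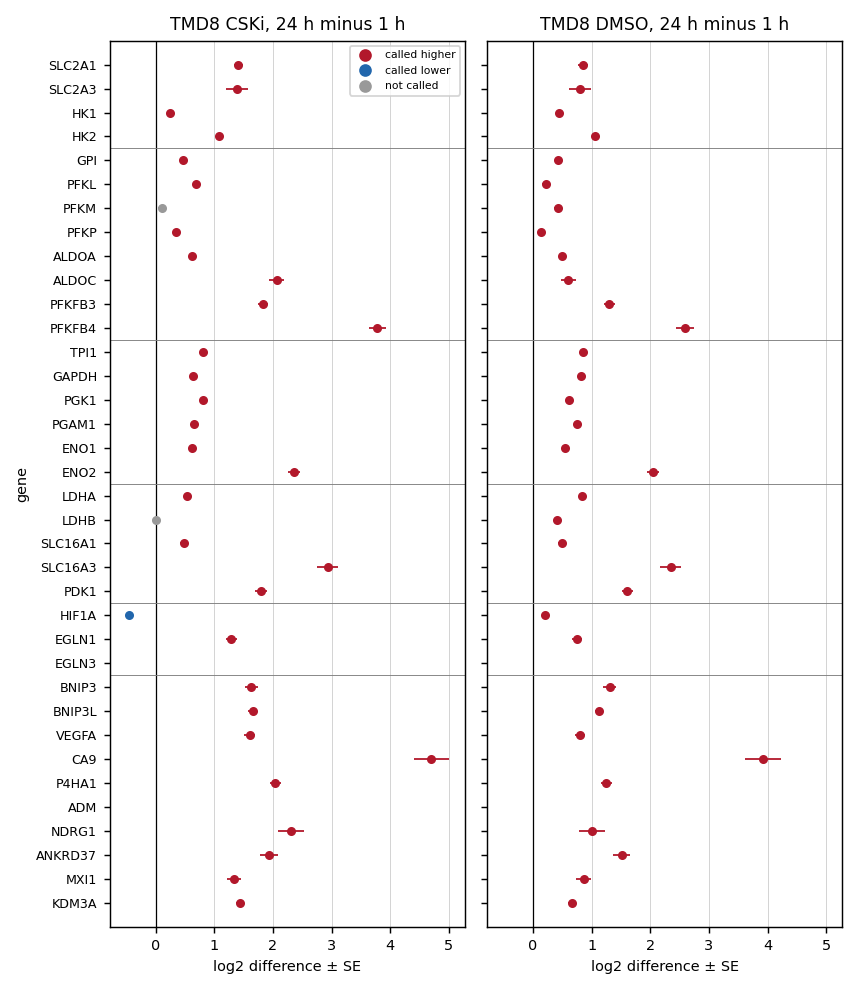
Difference between 24 h and 1 h in the CSKi arm (left) and the DMSO arm (right) of TMD8: points are log2 differences with SE from limma for the 34 genes tested, red where called higher, blue where called lower and grey where not called. Every point in the DMSO panel lies right of zero, from 0.14 for PFKP to 2.59 for PFKFB4 and to 3.92 for CA9, which passed the filter through its 24 h libraries alone, and HIF1A lies at -0.46 in the CSKi panel.

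Set against vehicle at the same time, more of the genes in TMD8 were higher than lower with CSKi at 24 h. Of the 34 tested, 21 were called higher and 6 lower (median difference 0.36), where 54% of all features tested were called, 27.9% higher and 26.2% lower (median 0.02). The hypoxia-induced genes and the upper glycolytic enzymes were mostly higher. The lactate dehydrogenases, GAPDH, PFKM, HK1 and HIF1A were lower, a smaller share than the 26.2% over all features.

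Among the hypoxia-induced genes, 8 of 9 tested were called higher and none lower. NDRG1, a stress-induced gene that restrains growth and spread of tumour cells, had 689 and 543 in CSKi, against 290 and 165 in DMSO (1.49 ± 0.22, adjusted p = 2.71e-06). KDM3A had 7450 and 6922 in CSKi, against 4387 and 3643 in DMSO (0.84 ± 0.07, adjusted p = 1.45e-10). VEGFA had 6022 and 4994 in CSKi, against 3606 and 2866 in DMSO (0.77 ± 0.09). In each of these the CSKi duplicates lay wholly above the DMSO duplicates, as they did for 38.6% of all features. P4HA1 rose by 0.80 ± 0.09, ANKRD37 by 0.65 ± 0.15 and BNIP3L by 0.64 ± 0.07. MXI1, a repressor in the MYC network, rose by 0.47 ± 0.12 and BNIP3 by 0.35 ± 0.11. CA9 was not called, with 962 and 555 in CSKi, against 700 and 432 in DMSO, so its groups overlapped (0.41 ± 0.30, adjusted p = 0.259). ADM, untested, had 243 and 161 in CSKi, against 177 and 90.9 in DMSO, which overlapped too.

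In upper glycolysis 6 of 8 were called higher. ALDOC, an aldolase isoform, had 8971 and 6700 in CSKi, against 3492 and 2145 in DMSO (1.50 ± 0.13, adjusted p = 3.43e-10), the largest difference among the genes tested. PFKFB4 had 3591 and 2686 in CSKi, against 1773 and 1299 in DMSO (1.03 ± 0.15). Both rose beyond 2-fold (2.83 for ALDOC and 2.05 for PFKFB4), with the CSKi duplicates above the DMSO duplicates, as for 38.6% of all features. PFKFB3 rose by 0.48 ± 0.09, PFKL by 0.40 ± 0.06 and PFKP by 0.24 ± 0.05, whereas the third phosphofructokinase subunit PFKM fell by 0.28 ± 0.06. The 3 subunits of the same enzyme went in opposite directions. ALDOA was called at 0.12 ± 0.05 (adjusted p = 0.0325), a call that was lost under most other settings and came to -0.00 under quantile normalization.

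Lower glycolysis was mixed. PGK1, which makes the first ATP of the pathway, had 31216 and 27689 in CSKi, against 27006 and 23723 in DMSO (0.22 ± 0.05, adjusted p = 0.000521), and ENO2 had 1984 and 1662, against 1532 and 1357 (0.33 ± 0.10). GAPDH, often used to normalise other genes, had 58575 and 51454 in CSKi, against 64276 and 60893 in DMSO (-0.19 ± 0.04, adjusted p = 0.000313). TPI1, PGAM1 and ENO1 were not called, with differences of -0.02 ± 0.04, -0.10 ± 0.05 and 0.06 ± 0.05. GAPDH, ENO1, LDHA, PGK1, TPI1, ALDOA and PGAM1 have processed pseudogenes close to them in sequence, so their counts carry an uncertainty that the replicates do not show.

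The genes around pyruvate split. LDHA had 32362 and 30915 in CSKi, against 39814 and 37693 in DMSO (-0.29 ± 0.04, adjusted p = 1.86e-07). LDHB, the subunit that favours the way back to pyruvate, had 25834 and 26104 in CSKi, against 33549 and 33783 in DMSO (-0.37 ± 0.03, adjusted p = 1.06e-10). Both fell, and neither overlapped its vehicle values, where 35% of all features lay wholly below theirs. PDK1 had 1373 and 1381 in CSKi, against 1145 and 1000 in DMSO (0.36 ± 0.10, adjusted p = 0.00316), and SLC16A3 had 1430 and 982, against 1021 and 680, overlapping (0.51 ± 0.18, adjusted p = 0.0223). SLC16A1 was not called (0.09 ± 0.06).

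At the entry, SLC2A1 had 3461 and 2856 in CSKi, against 2476 and 2090 in DMSO (0.47 ± 0.08, adjusted p = 1.02e-05). SLC2A3, the high-affinity transporter, had 235 and 251, against 158 and 121 (0.81 ± 0.19). HK2 was not called, with 9052 and 8376 in CSKi, against 8382 and 8090 in DMSO (0.08 ± 0.04, adjusted p = 0.125), and HK1 fell by 0.19 ± 0.05. The transporters thus rose, and neither hexokinase was called higher.

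HIF1A and EGLN1, of the oxygen sensing group, moved in opposite directions. HIF1A had 3373 and 3751 in CSKi, against 5461 and 5797 in DMSO, a 1.58-fold fall (-0.66 ± 0.05, adjusted p = 1.11e-11), and was the gene with the smallest adjusted p of the 34. EGLN1 had 2113 and 1875 in CSKi, against 1529 and 1310 in DMSO (0.49 ± 0.09, adjusted p = 8.64e-05). EGLN3 had 7.97 and 13.9, against 5.72 and 2.64, on 7 reads or fewer.

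**Figure D3:**
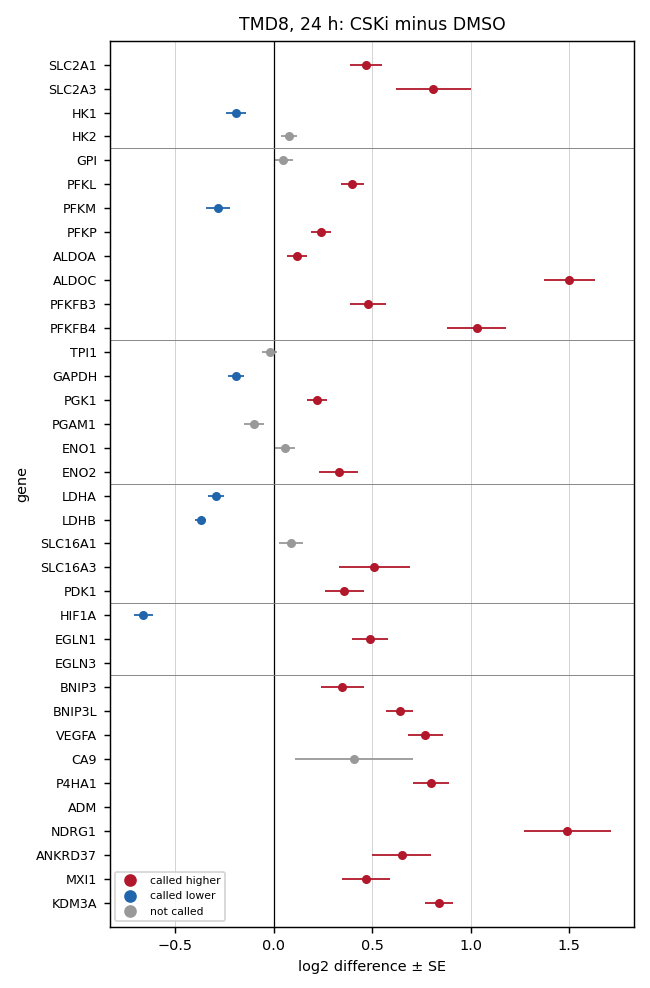
CSKi minus DMSO at 24 h in TMD8: points are log2 differences with SE from limma for the 34 genes tested, grouped by role and coloured by call (red higher, blue lower, grey not called). ALDOC (1.50) and NDRG1 (1.49) lie farthest right and HIF1A (-0.66) farthest left, and the bottom group of hypoxia-induced genes lies wholly right of zero.

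The libraries of 24 h also differed in ways that run along the genes. Replicate 1 stood above replicate 2 for 30 of 34 genes within CSKi (median 0.17) and for 31 of 34 within DMSO (median 0.18). CSKi replicate 2 stood above DMSO replicate 1 for 20 of 34 genes (median 0.12) and CSKi replicate 1 above DMSO replicate 2 for 28 (median 0.56). Without DMSO 24 h replicate 2 the count of calls was 21, and the calls of BNIP3, ENO2, MXI1, PDK1, PGK1, SLC16A3 and ALDOA were lost. Without CSKi replicate 1 those of ENO2, SLC16A3 and ALDOA were lost, and without CSKi replicate 2 that of HK1. Markers of other cells were also higher at 24 h in CSKi. The 9 myeloid markers summed to between 2438 and 2623 normalised counts in CSKi, against 1744 to 1788 in DMSO, with LYZ, S100A8, S100A9, FCGR3A and MPO at 3 reads or fewer in TMD8. The 11 fibroblast and epithelium markers summed to between 4929 and 5315, against 3425 to 3708 (LUM, EPCAM, KRT18 and KRT19 at 3 reads or fewer), and the 10 T and NK cell markers to between 137 and 163, against 93.5 to 103 (CD3D, CD3E, CD3G, CD2, CD7, GNLY and KLRD1 at 3 reads or fewer). The 9 B cell markers summed to 236981 to 243931, against 181494 to 182118. The part of these markers in the differences above was not tested.

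The response to CSKi changed over time. The difference between CSKi and DMSO at 24 h minus that at 6 h was called for 20 genes, 17 upward and 3 downward, where 29.6% of all features were called, 15.4% upward and 14.1% downward. It was largest for ALDOC (1.52 ± 0.18), SLC2A3 (1.22 ± 0.27), P4HA1 (0.96 ± 0.13) and NDRG1 (0.96 ± 0.31). HK2 had a response of -0.54 ± 0.04 at 6 h and 0.08 ± 0.04 at 24 h, a change of 0.62 ± 0.06 (adjusted p = 3.61e-08). HIF1A changed by -0.58 ± 0.07, LDHB by -0.38 ± 0.04 and GAPDH by -0.17 ± 0.06. The calls of NDRG1 and GAPDH were lost with no filter and with no variance trend. Without DMSO 24 h replicate 2 this count was 13, of which 9 went upward and 4 downward. From 1 to 24 h, which is also the difference between the arms in their change over time, 14 genes were called upward and 6 downward (HK1, PFKM, GAPDH, LDHA, LDHB and HIF1A), against 41.9% of all features (21.7% upward and 20.2% downward). KDM3A changed by 0.77 ± 0.10 and VEGFA by 0.80 ± 0.12 there, and ENO2 (0.31 ± 0.14) and PDK1 (0.19 ± 0.14) were not called. The value for CA9 was 0.78, given with no test. The comparisons with 24 h share the 24 h libraries with those above.

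Within the first 6 h, CSKi touched few of the genes in TMD8. At 1 h none was called by limma, none had an unadjusted p under 0.05, and voom on recovered reads called none (0.05% of all features called). At 3 h HK2 was lower and BNIP3L higher (4.73% of all features called, 1.47% higher and 3.26% lower). At 6 h HK2 and LDHA were lower and BNIP3L higher (12.7% called, 5.67% higher and 6.98% lower). HK2 had 3899 and 4003 in CSKi, against 4918 and 4583 in DMSO at 3 h (-0.27 ± 0.04, adjusted p = 0.000252). At 6 h it had 3154 and 3134 in CSKi, against 4608 and 4535 in DMSO (-0.54 ± 0.04, adjusted p = 1.59e-09). Both CSKi duplicates lay below both DMSO duplicates at each time, as for 22.8% of all features at 3 h and 24.9% at 6 h. LDHA had 21469 and 20185 in CSKi, against 23625 and 23074 in DMSO at 6 h (-0.17 ± 0.04, adjusted p = 0.00214). BNIP3L had 1066 and 1025, against 836 and 880 (0.29 ± 0.07, adjusted p = 0.00649). The call of BNIP3L was lost at 3 h without CSKi replicate 1, CSKi replicate 2 or DMSO replicate 1 (1 call left each time) and at 6 h without CSKi or DMSO replicate 1, and that of LDHA without CSKi 6 h replicate 2. SLC2A1, PDK1 and HIF1A were not called at 6 h, with 0.13 ± 0.08, -0.17 ± 0.10 and -0.08 ± 0.05.

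In DOHH2, CSKi lowered genes of glycolysis by small amounts at 6 h. There 8 genes were called lower and 3 higher (median -0.08 over the 31 tested, -0.00 over all features), where 13.6% of all features were called, 6.67% lower and 6.96% higher. HK2 had 4303 and 4185 in CSKi, against 5375 and 5293 in DMSO (-0.33 ± 0.04, adjusted p = 2.79e-06). SLC16A1 had 2587 and 2573, against 3376 and 3245 (-0.36 ± 0.05, adjusted p = 6.16e-06). LDHA had 13531 and 12881, against 15586 and 14472 (-0.19 ± 0.04, adjusted p = 0.000468). SLC2A1 had 1800 and 1928, against 2178 and 2200 (-0.23 ± 0.05, adjusted p = 0.00202). All 4 lay below vehicle in both duplicates, as did 26.3% of all features. SLC16A3 (-0.35 ± 0.12), ALDOA (-0.12 ± 0.03), GAPDH (-0.11 ± 0.03) and TPI1 (-0.08 ± 0.03) were the other calls on that side. MXI1 had 1085 and 1058 in CSKi, against 879 and 835 in DMSO (0.32 ± 0.07), and KDM3A (0.20 ± 0.05) and HIF1A (0.15 ± 0.04) were also higher. PDK1 was not called, with 894 and 797, against 879 and 877 (-0.06 ± 0.07).

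These DOHH2 calls rest on the spread of the 12 libraries of 1 to 6 h. With the 24 h libraries in the fit, none of the 11 calls at 6 h was left. Without CSKi 6 h replicate 1 there were 6, and single calls of ALDOA, GAPDH, HIF1A, KDM3A, SLC16A3 and TPI1 were lost without 1 or more libraries. HK2, SLC16A1, SLC2A1, LDHA and MXI1 kept their calls without each library in turn.

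At 3 h in DOHH2 3 genes were higher and 3 lower (14.5% of all features called, 7.27% each way), a split of 3 and 6 under quantile normalization. MXI1 had 1078 and 1070 in CSKi, against 751 and 755 in DMSO (0.51 ± 0.07, adjusted p = 5.33e-06). BNIP3L had 929 and 821, against 651 and 653 (0.42 ± 0.08, adjusted p = 0.000421), and KDM3A rose by 0.17 ± 0.05. HK1 fell by 0.17 ± 0.04, VEGFA by 0.22 ± 0.06 and LDHA by 0.10 ± 0.04. With all 16 libraries MXI1 alone was called, and without any 1 library of the 3 h groups 3 calls were left each time. At 1 h VEGFA was the only call (2.05% of all features, 0.825% higher and 1.23% lower), with 977 and 1070 in CSKi, against 1318 and 1280 in DMSO (-0.34 ± 0.06, adjusted p = 0.000906). It was lost without CSKi 1 h replicate 1, and VEGFA and SLC2A1 were called without CSKi 1 h replicate 2.

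**Figure D4:**
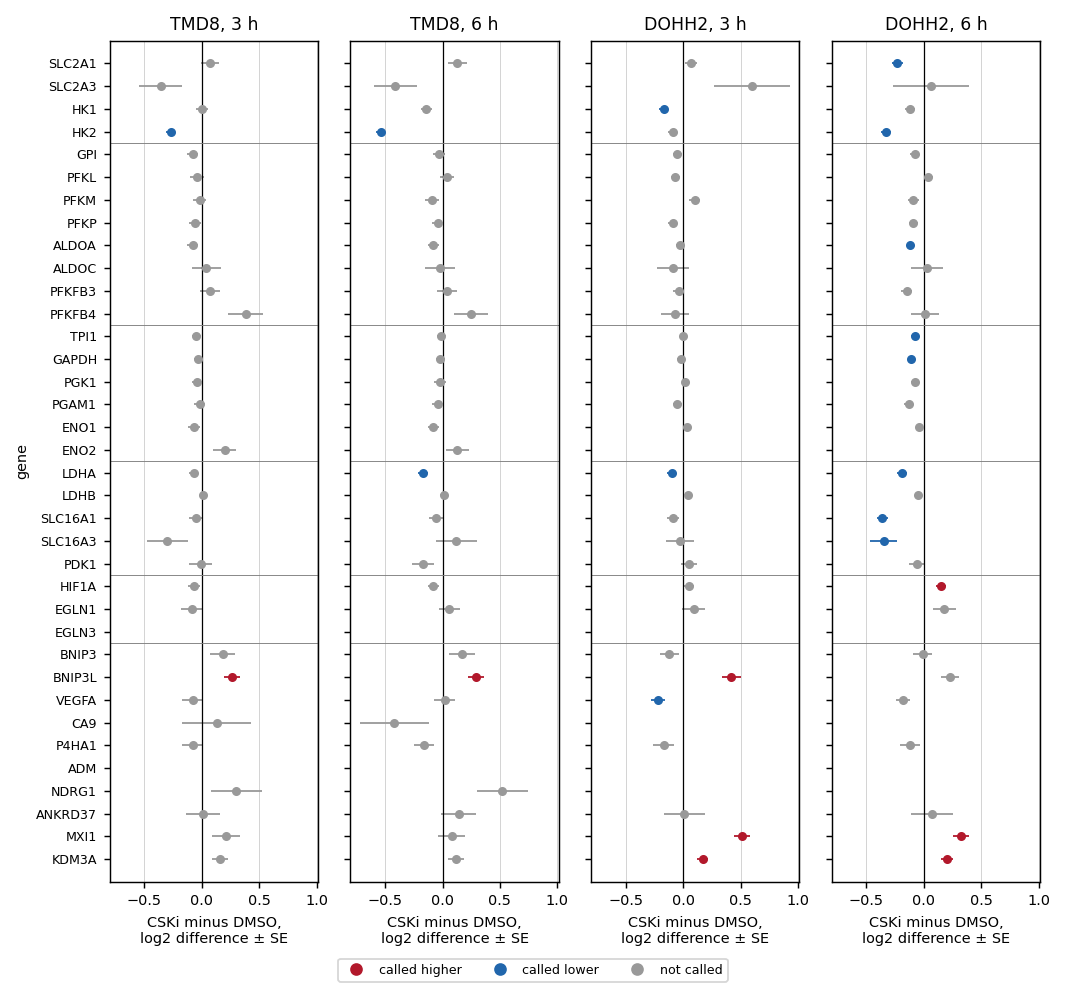
CSKi minus DMSO at 3 and 6 h in TMD8 (left panels) and DOHH2 (right panels): points are log2 differences with SE from limma, coloured by call (red higher, blue lower, grey not called), and genes not tested have no point. HK2 lies at -0.54 in TMD8 and -0.33 in DOHH2 at 6 h, and BNIP3L is red at 3 h in both lines.

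Between the lines, HK2 and LDHA were called lower in both at 6 h, and BNIP3L was called higher in both at 3 h. The share of all features called in both lines was not counted. None of these DOHH2 calls was left with all 16 DOHH2 libraries in the fit. In TMD8 the call of BNIP3L at 3 h was lost with no filter and with no variance trend. The size of the response differed between TMD8 and DOHH2 for none of 33 genes tested at 1 h (4 at an unadjusted p under 0.05, none by voom, 0.45% of all features called), for none at 3 h (4 at an unadjusted p under 0.05, none by voom, 4.83%) and for 5 at 6 h (5.97%, 2.52% upward and 3.46% downward). At 6 h TMD8 minus DOHH2 was 0.36 ± 0.10 for SLC2A1, 0.30 ± 0.08 for SLC16A1, -0.21 ± 0.06 for HK2 and -0.23 ± 0.06 for HIF1A. The count of 5 includes ENO2, which, like NDRG1, passed the filter of this fit through TMD8 alone. Its difference (-1.83) is therefore given as a value and not read as a call. ENO2 had 22.3 and 9.25 in CSKi and 5.27 and 2.58 in DMSO of DOHH2, where it rests on 21 reads at most. None of the 5 remained with all 32 libraries in the fit, 0 to 3 genes were called when any 1 of the 8 libraries compared was left out, and quantile normalization gave 2 upward and 1 downward in place of 2 and 3.

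Vehicle time in DOHH2 showed no rise of the pathway by 6 h, and the 24 h libraries follow below. At 3 h minus 1 h 12 of 31 genes were called lower and none higher (33.8% of all features called, 17.3% lower and 16.5% higher), among them PFKFB4 with 139 and 141 at 3 h, against 235 and 241 at 1 h (-0.77 ± 0.12). Quantile normalization gave 7 lower and 1 higher, and without DMSO 1 h replicate 2 or DMSO 3 h replicate 1 there were 7. At 6 h minus 1 h 9 were lower and 4 higher (43.7% called, 23.4% lower and 20.3% higher), a split that quantile normalization turned to 4 lower and 8 higher. HK2 (0.15 ± 0.04), SLC16A1 (0.38 ± 0.05), P4HA1 (0.40 ± 0.09) and PFKFB3 (0.23 ± 0.05) were the genes higher at 6 h. SLC2A3 was lower at both times (-1.03 ± 0.33 and -1.21 ± 0.33), on 14 to 35 reads. PFKFB4 was thus lower at 3 h than at 1 h in the vehicle of both lines.

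At 24 h in DOHH2 as labelled, no gene was called between CSKi and DMSO, 1 had an unadjusted p under 0.05, and voom called none (0% of all features called). The libraries instead fell along other pairs. Over the 31 genes, CSKi replicate 1 and DMSO replicate 2 differed with an SD of 0.168, and CSKi replicate 2 and DMSO replicate 1 with an SD of 0.119, while the CSKi duplicates differed by 0.331 and the DMSO duplicates by 0.234. The genes took 1.25% of mapped reads in CSKi replicate 1 and 1.06% in CSKi replicate 2, against 1.05% in DMSO replicate 1 and 1.28% in DMSO replicate 2. Each share lay above those of the DOHH2 libraries of 1 to 6 h (0.967 to 1.04%). Group means of PFKFB4 were 477 (CSKi) and 488 (DMSO) at 24 h, against 133 to 253 at 1 to 6 h. Those of VEGFA were 1517 and 1575, against 972 to 1299. HIF1A went the other way, with 3278 and 3433, against 3701 to 4096. The genes moving each way were not counted, and 24 h minus earlier times was not tested in DOHH2. LDHA had 20143 and 14008 in CSKi replicates 1 and 2, against 14243 and 19282 in DMSO replicates 1 and 2. PFKFB4 had 614 and 339 in CSKi, against 337 and 640 in DMSO in the same order. PGK1 followed the same order, with 33433 and 24526 in CSKi, against 25163 and 33410 in DMSO, and so did HK2, with 5591 and 4421, against 4712 and 5611. PDK1 had 1121 and 899 in CSKi, against 997 and 1013 in DMSO, SLC2A1 2235 and 2223 against 2126 and 2250, and HIF1A 3148 and 3409 against 3686 and 3180. Without CSKi 24 h replicate 2, 1 gene was called lower (PFKL).

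The genes too low to test in DOHH2 were near or at 0 throughout. CA9 had no reads in the 12 libraries of 1 to 6 h, where a count of 0 allows up to 3 reads, and 1 read at most at 24 h. EGLN3 reached 1.40 normalised counts at most, ADM 4.35, NDRG1 16.8 and ENO2 22.3.

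**Figure D5:**
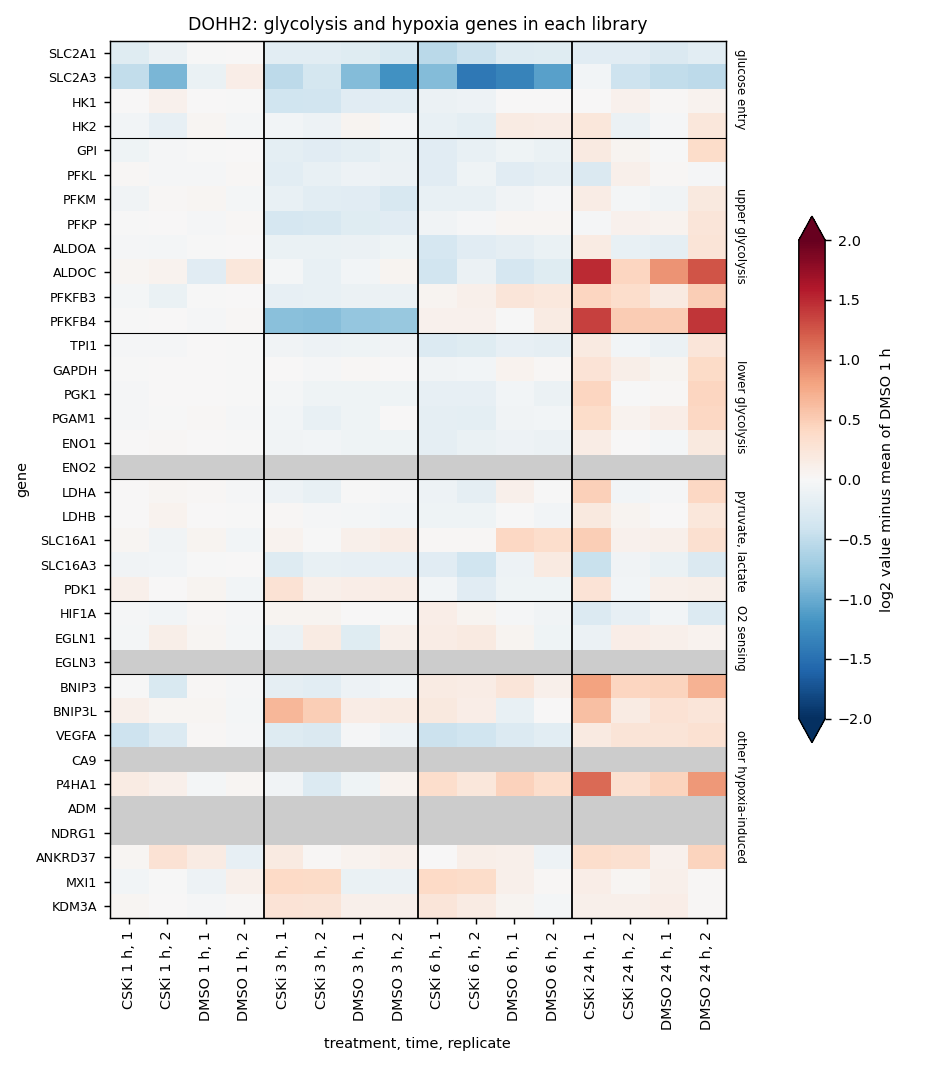
Heat map of the 36 genes in the 16 DOHH2 libraries, laid out and coloured as for TMD8 (log2 value minus the mean of the DMSO 1 h libraries, capped at 2). Grey rows are genes too low to be tested. At 24 h the columns labelled CSKi replicate 1 and DMSO replicate 2 look alike, with LDHA, PGK1 and PFKFB4 redder than in the other pair.

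The lines also differed in vehicle, over the DMSO libraries of 1, 3 and 6 h (6 per line). ENO2 and NDRG1 passed the filter of this fit through TMD8 alone and are given as values with no test. Of the other 31 genes, 13 were called higher in TMD8 and 17 lower. This was near the share over all features, of which 89.4% were called (43.8% higher and 45.6% lower). The isoforms split. ENO2 ranged from 299 to 373 with a median of 324 in TMD8, against 2.58 to 11.3 with a median of 7 in DOHH2, where it rests on few reads. NDRG1 ranged from 75.6 to 130 with a median of 94.3 in TMD8, against 1.32 to 11.5 with a median of 5.65 in DOHH2. ALDOC ranged from 1364 to 1856 with a median of 1488 in TMD8, against 161 to 238 with a median of 184 in DOHH2 (3.04 ± 0.09). The phosphofructokinase subunit PFKP was higher in TMD8 by 0.86 ± 0.03, while PFKL (-0.91 ± 0.03) and PFKM (-0.86 ± 0.03) were lower. Around pyruvate, LDHA ranged from 21189 to 23625 with a median of 22404 in TMD8, against 14293 to 15586 with a median of 14487 in DOHH2 (0.62 ± 0.02). PDK1 ranged from 343 to 467 in TMD8, against 877 to 1031 in DOHH2, with medians of 400 and 932 (-1.24 ± 0.05). SLC2A1 ranged from 1232 to 1377 with a median of 1284 in TMD8, against 2107 to 2628 with a median of 2196 in DOHH2 (-0.84 ± 0.04). None of these ranges overlapped, and the share of all features without overlap was not counted. HIF1A was higher in TMD8 by 0.38 ± 0.03 and MXI1 lower by 1.23 ± 0.07 on the log2 scale, HK2 differed by -0.17 ± 0.03, and PGAM1 was the gene not called (0.03 ± 0.03). The remaining calls ranged from -1.03 ± 0.10 for SLC16A3 to 1.68 ± 0.13 for SLC2A3.

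Genes of neighbouring pathways in TMD8 at 24 h were called in both directions between CSKi and DMSO. Beside the 54% of all features called in this comparison (27.9% higher and 26.2% lower), 15 of 26 other hypoxia targets tested were called higher and 1 lower (median 0.33). The transcription factor BHLHE40 had 6405 and 5898 in CSKi, against 3780 and 3277 in DMSO (0.80 ± 0.07), and the chemokine receptor CXCR4 had 3440 and 3051, against 1868 and 1520 (0.94 ± 0.08). ZNF395 rose by 0.78 ± 0.07. All 3 had CSKi duplicates above both vehicle duplicates, as did 38.6% of all features. Of 31 genes of pyruvate dehydrogenase and the tricarboxylic acid cycle, 16 were called lower and 4 higher (median -0.14). Fumarase FH had 4214 and 4336 in CSKi, against 5797 and 5549 in DMSO (-0.41 ± 0.04), and the succinate dehydrogenase subunit SDHB fell by 0.36 ± 0.05 and the isocitrate dehydrogenase subunit IDH3A by 0.32 ± 0.04. Among 14 other glycolytic genes 6 were higher and 5 lower, with PGAM2, a phosphoglycerate mutase known from muscle, at 1460 and 1280, against 702 and 677 (0.99 ± 0.07). ENO3 rose by 0.58 ± 0.06 and PFKFB2 by 0.42 ± 0.08. Of 12 other genes of oxygen sensing 5 were higher and 4 lower. The HIF partner ARNT rose by 0.34 ± 0.05 and the coactivator EP300 by 0.29 ± 0.04, while the hydroxylase EGLN2 fell by 0.41 ± 0.04. The pentose phosphate pathway had 1 gene higher (H6PD, 0.31 ± 0.05) and 3 lower of 8, among them TKT (-0.21 ± 0.04) and RPE (-0.39 ± 0.08).

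In TMD8 vehicle at 24 h minus 1 h the same neighbours held calls in both directions. The background was 46.7% of all features called, 22.8% higher and 23.9% lower. Among other hypoxia targets 17 were called higher and 2 lower of 26 (median 0.53). C7orf68, an older symbol of the lipid droplet gene HILPDA, had 6200 and 4644 at 24 h, against 645 and 724 at 1 h (2.97 ± 0.18). ZNF395 rose by 1.27 ± 0.07 and WSB1 by 0.75 ± 0.05. The other glycolytic genes gave 3 higher and 4 lower of 14, and here PGAM2 had 702 and 677 at 24 h, against 1171 and 1262 at 1 h (-0.82 ± 0.07). PGM1, which feeds glycogen-derived glucose into the pathway, rose by 0.72 ± 0.06 and PFKFB2 fell by 0.59 ± 0.08. Pyruvate dehydrogenase and the tricarboxylic acid cycle gave 8 higher and 6 lower of 31, oxygen sensing 2 higher and 4 lower of 12, and the pentose phosphate pathway 2 higher and 3 lower of 8.

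In DOHH2 at 6 h the neighbours gave few calls, as did all features (13.6% called). The transporter SLC2A6 had 544 and 503 in CSKi, against 865 and 868 in DMSO (-0.73 ± 0.07), and the pyruvate kinase gene PKM, listed under its older symbol PKM2, fell by 0.11 ± 0.03, both among 15 other glycolytic genes. CXCR4 had 25058 and 25373 in CSKi, against 14442 and 14452 in DMSO (0.80 ± 0.03). BHLHE40 had 39.4 and 34.3, against 68.5 and 73.6 (-0.95 ± 0.20). Other hypoxia targets gave 3 higher and 2 lower of 22, oxygen sensing 2 higher of 11 (CITED2, which competes with HIF for its coactivators, at 0.67 ± 0.09, and CREBBP at 0.23 ± 0.04), pyruvate dehydrogenase and the cycle 1 lower of 31 (DLAT, -0.15 ± 0.05) and the pentose phosphate pathway 1 higher of 8 (TKT, 0.14 ± 0.03).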

How the data were processed

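RNA of TMD8 and DOHH2 was sequenced as paired reads from stranded mRNA libraries, per the labels' protocols. Reads were counted with HTSeq and the build was hg19, per the submitters' processing notes. The sources used here do not give the aligner or the strand setting of the counting. Whether reads of overlapping antisense genes were kept apart is therefore not known. In the deposited table each value is a count scaled by 1 factor per library and put on the log2 scale, with 0 for no reads. This was read from the values, since dividing by the value of 1 read gave whole reads within 0.1 for 99.8 to 100% of values up to 300 reads in each library. Standard errors and p-values came from limma 3.58.1 in R 4.3.3 on the deposited log2 values as a model of group means with a variance trend, two-sided, with Benjamini-Hochberg adjustment over 12000 features. TMD8 used its 16 libraries, DOHH2 the 12 of 1 to 6 h, the line comparisons 28, and DOHH2 at 24 h all 16. Read depth, which limits low genes most, was 12273442 to 24907030 mapped reads per library. A normalised count is 2 to the power of the deposited value. All 36 genes could be named. Values in each library were given for HK2, LDHA, SLC2A1, PDK1, HIF1A and EGLN3 where they were tested, and for called genes with the smallest adjusted p in each role. Up to 3 genes of each neighbouring list were named by the same rule. Genes given beyond this rule, among them ADM, were chosen after their values were seen. The members, lists and tests were chosen with earlier results of these data known. Each result was recomputed with other filters, scalings, variance models, voom on recovered reads, a replicate block and each library left out. Tables were made with Python 3.11.15 and pandas 2.3.3, figures with matplotlib 3.10.9. The limma code was tested on simulated data.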

Additional observations from a re-analysis of the deposited data

Results flagged for a closer look

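The following results differed between times or between lines by a test of the difference itself, with limma. In TMD8 the response to CSKi changed from 6 to 24 h for 20 genes. It moved upward at 24 h minus 6 h for SLC2A1 (0.34), SLC2A3 (1.22), HK2 (0.62), PFKL (0.36), PFKP (0.28), ALDOA (0.20), ALDOC (1.52), PFKFB3 (0.44), PFKFB4 (0.78) and PGK1 (0.24). It also moved upward for PDK1 (0.54), EGLN1 (0.43), BNIP3L (0.35), VEGFA (0.75), P4HA1 (0.96), NDRG1 (0.96) and KDM3A (0.72). It moved downward for GAPDH (-0.17), LDHB (-0.38) and HIF1A (-0.58). With no filter, and also with no variance trend, the calls of SLC2A1, ALDOA, PFKFB3, PGK1, EGLN1, NDRG1 and GAPDH were lost. That of PFKP was lost with no variance trend. From 1 to 24 h the response changed for 20 genes as well. Both comparisons use the same 24 h libraries, and the count from 6 to 24 h was 13 without DMSO 24 h replicate 2.

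Between the lines, TMD8 minus DOHH2, the response at 6 h differed for 5 genes: SLC2A1 (0.36), HK2 (-0.21), ENO2 (-1.83), SLC16A1 (0.30) and HIF1A (-0.23), where 5.97% of all features were called. None of the 5 was called with all 32 libraries in the fit, and 0 to 3 genes were called with any 1 library left out. SLC2A1 responded to CSKi by 0.13 ± 0.08 in TMD8 and by -0.23 ± 0.05 in DOHH2. HK2 fell in both lines, by 0.54 ± 0.04 on the log2 scale in TMD8 and by 0.33 ± 0.04 in DOHH2. ENO2 rests on 21 reads or fewer per library in DOHH2. It passed the filter of this fit through TMD8 alone, so its difference is a value and not read as a call.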

How the results depend on the processing

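Of the values of single genes recomputed under other settings, 4099 kept their direction and side of the threshold, 400 lost the call, and 4 turned, all under quantile normalization: ALDOA at 24 h in TMD8 (CSKi minus DMSO, -0.00), and in DOHH2 vehicle ENO1 at 3 h minus 1 h (0.03) and 6 h minus 1 h (0.05) and PGK1 at 6 h minus 1 h (0.05). The cause was not tested here or below, apart from stricter thresholds and fewer libraries, which lower counts by construction. Replicates with the same number rarely had deviations correlated over 0.1 between groups. This held for 1 of 28 pairs of groups in TMD8 (r -0.16 to 0.166) and 2 of 28 in DOHH2 (-0.476 to 0.19). The TMD8 pair was CSKi and DMSO at 24 h (0.166). There replicate 1 stood above replicate 2 for 30 of 34 genes in CSKi and 31 of 34 in DMSO. The replicate block is 1 term common to all times, so it cannot decide whether the 24 h libraries were paired. The replicate block gave 2 calls at 1 h and 17 at 6 h for CSKi in DOHH2 (1 and 11 without it) and 1 for the line difference at 3 h (0 without it), and moved no other count beyond 1.5 times, with 27 at 24 h in TMD8. For CSKi minus DMSO in TMD8, the 2 calls of 3 h became 1 at adjusted p under 0.01, 1 with no filter, 1 with no variance trend and 6 with only the groups compared, and the 3 of 6 h became 6 with only the groups compared. In DOHH2 the 1 call of 1 h became 2 with robust variance, 2 with voom and 2 with only the groups compared. The 6 of 3 h became 3 at 0.01 and 1 with all 16 libraries, and the 11 of 6 h became 7 at 0.01, 5 with no variance trend, 17 with voom, 7 with only the groups compared and 0 with all 16 libraries. In TMD8 vehicle the 7 calls of 3 h minus 1 h became 3 at 0.01, 4 with no filter and 3 with no variance trend, and the 13 of 6 h minus 1 h became 7, 8 and 7. In DOHH2 vehicle the 12 of 3 h minus 1 h became 7 at 0.01, 6 with no filter, 7 with no variance trend and 5 with all 16 libraries, and the 13 of 6 h minus 1 h became 4 with all 16. The 20 changes of the TMD8 response from 6 to 24 h became 13 with no filter and 12 with no variance trend. The 5 line differences at 6 h, ENO2 included, became 0 at 0.01, 1 with no filter, 3 with quantile normalization, 1 with no variance trend and 0 with all 32 libraries. With each library left out in turn, CSKi minus DMSO gave 0 to 0 calls at 1 h, 1 to 2 at 3 h, 2 to 3 at 6 h and 21 to 29 at 24 h in TMD8, and 0 to 2 at 1 h, 3 to 3 at 3 h, 6 to 10 at 6 h and 0 to 1 at 24 h in DOHH2. TMD8 vehicle gave 2 to 6 at 3 h minus 1 h, 5 to 10 at 6 h minus 1 h, 32 to 34 at 24 h minus 1 h and 33 to 34 at 24 h minus 6 h, and the CSKi arm 32 to 33, CA9 included in these. ALDOC and PFKL lost their vehicle calls at 24 h minus 1 h without DMSO 24 h replicate 1, and PFKP without DMSO 24 h replicate 2 or 1 h replicate 1. The response gave 13 to 24 from 6 to 24 h and 18 to 24 from 1 to 24 h. DOHH2 vehicle gave 7 to 9 and 9 to 13, and the lines 32 to 32 in vehicle (ENO2 and NDRG1 included) and 0 to 1, 0 to 0 and 0 to 3 for the response at 1, 3 and 6 h. The 1 at 1 h was NDRG1 without DOHH2 CSKi 1 h replicate 1, on few reads in DOHH2. No scaling moved the median of all features by over 0.1. Groups of 2 give little information on spread, and a library left out leaves a single sample assumed to vary like the other groups. Genes with few reads, such as EGLN3 and SLC2A3 in DOHH2, carry counting error that limits them most.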
